A study of Mus musculus with 6 samples.

Results

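The genes described here bring glucose into brain cells (Slc2a1 and Slc2a3), sense the energy state of the cell (the AMPK subunits Prkaa1, Prkaa2, Prkab1, Prkab2, Prkag1 and Prkag2), activate that sensor (Stk11) or uncouple mitochondria (Ucp2). They were chosen by gene symbol, and 9 of the 10 genes had a named probe, 10 probes in all among the 45281 probes of the array. Ucp2 had no named probe here and is not analysed. Prkaa2 was read by 2 probes and each other gene by 1 probe. All 10 member probes were among the 20006 probes bright enough to be tested, and 9 of them were detected on all 6 arrays.

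Expression was measured on Illumina Mouse-6 BeadChips in tissue of the ventromedial hypothalamus (VMH), a nucleus that helps to regulate feeding, energy use and blood glucose. The tested mice carried a knockout of the transcription factor FoxO1 restricted to this nucleus (KO), and wild-type mice (WT) were the comparison; the strain background of both is given as mixed, and neither received a treatment. The labels name no Cre driver and give no age, and cells of the dissected tissue outside the recombined population still carry FoxO1. Each genotype has 3 arrays, numbered 1 to 3, and each array carried RNA pooled from 3 animals, so a replicate is a pool.

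Glucose enters the brain through GLUT1, the product of Slc2a1, which sits in the capillary endothelium and in astrocytes, and is taken up by neurons through GLUT3, the product of Slc2a3, which binds glucose with high affinity. AMPK is a heterotrimeric kinase with a catalytic alpha subunit, a scaffolding beta subunit that binds glycogen and a gamma subunit that binds adenine nucleotides. LKB1, the product of Stk11, activates AMPK by phosphorylation, and AMPK becomes more active when ATP falls. In the hypothalamus AMPK is known for promoting feeding in response to low energy, and UCP2, a carrier of the inner mitochondrial membrane, for its part in the glucose response of neurons.

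The arrays themselves set limits to these comparisons. Between 18771 and 19937 probes were detected on the KO arrays, against 19381 to 20445 on the WT arrays. KO 1 stood apart, with a mean correlation of 0.954 to the other arrays, where the others had 0.977 to 0.981. Transcripts of the exocrine pancreas were present on each array, with 14 of 17 listed markers tested. Their summed signal was 19174 to 92528 on the KO arrays, highest on KO 1, and 13937 to 70121 on the WT arrays, highest on WT 1. All 14 tested pancreatic markers had positive differences, with a median of 0.47 log2, while 0 of them separated the genotypes. All 10 listed markers of VMH neurons were tested, and their summed signal ran from 30088 on KO 1 to 42358 on KO 2, against 35078 to 38394 on the WT arrays. Of these VMH markers 3 had positive differences, with a list median of -0.074 log2, and 0 separated the genotypes. Tested markers of other cell types summed to 3754 to 4759 in KO and 3074 to 4058 in WT for microglia (10 of 12 genes), to 35916 to 39059 in KO and 36620 to 39273 in WT for oligodendrocytes (8 of 9), and to 4462 to 6575 in KO and 4228 to 4481 in WT for red cells (3 of 7). All 3 red cell genes had positive differences, at 1.77 log2 for Hbb-b2, 0.66 for Alas2 (the median) and 0.42 for Hba-a1. The Hbb-b2 and Alas2 probes were dim, with mean log2 signals of 5.98 and 5.56, and background correction widens differences of dim probes. For 2 of the 3 genes the genotypes separated with KO higher, as they did for 8.6% of all tested genes. After background correction the mean log2 signal of the 3 genes ran from 8.18 to 8.67 on the KO arrays, against 7.25 to 7.58 on the WT arrays. These means include both dim probes, and the summed deposited signals overlapped between genotypes. Of the microglial genes 7 were positive, with a median of 0.49, and of the oligodendrocyte genes 5, with a median of 0.071. The negative microglial genes were Fcer1g (-1.29, the largest difference of that list), Csf1r (-0.12) and Cx3cr1 (-0.076). In the microglial list 1 gene separated the genotypes, with KO above WT, and in the oligodendrocyte list 0 did. The part of these cells in the members' values was not tested. The brighter Foxo1 probe read 215.7, 283.7 and 279.7 on the KO arrays and 323.7, 306.6 and 356.8 on the WT arrays, which do not overlap, but its difference of -0.65 log2 did not pass (limma adjusted p = 0.582), and the dimmer probe differed by 0.34. Where these probes lie with respect to the deleted exons is unknown here, so they do not check the labels.

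Signals below are the deposited intensities in linear units, and differences are KO minus WT on a log2 scale after background correction. No level of one probe is set against that of another, because probes differ in brightness for the same amount of RNA.

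None of the 10 member probes differed between KO and WT past the threshold of limma's moderated test (Benjamini-Hochberg adjusted p under 0.05 over all tested probes, which 0.005% of tested probes passed). At an unadjusted p under 0.05 there were 0 member probes, where 7.58% of all tested probes lay. Adjusted p-values of the members ran from 0.582 to 0.987. Of the 10 differences 5 were positive and 5 negative, with a median of -0.022 log2 against 0.021 for all tested probes. The smallest was -0.38 for Slc2a3 and the largest 0.24 for Prkag2. For 2 member probes, Prkag2 and Stk11, the lowest KO array exceeded the highest WT array, where this held for 8.84% of all tested probes. The reverse held for 0 member probes and for 6.24% of all tested probes.

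**Figure D1:**
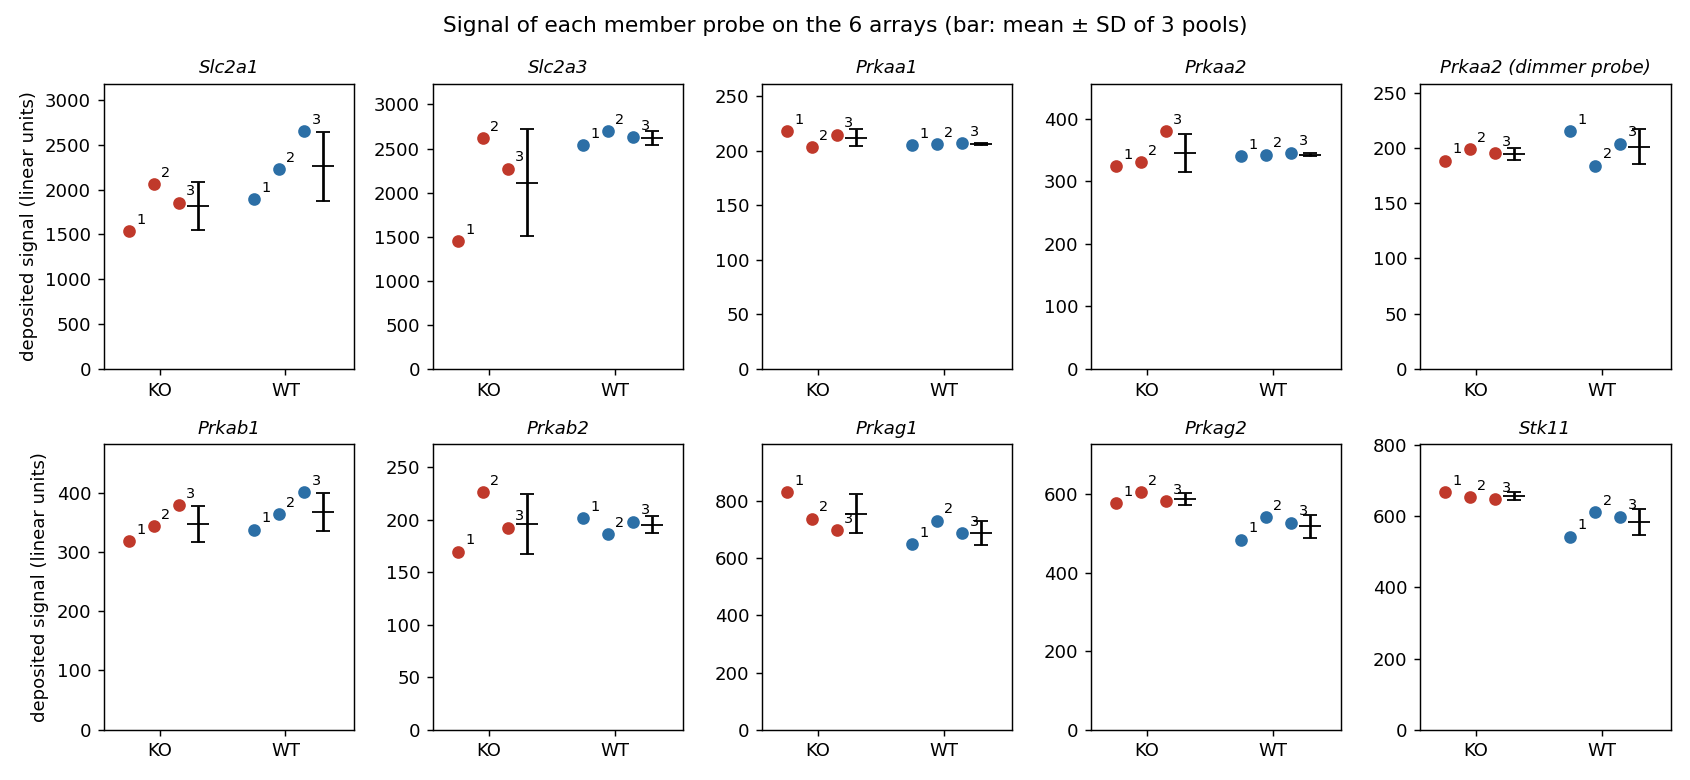
Deposited signal (linear units, axis from 0) of each of the 10 member probes, with a point per array labelled by its replicate number, KO in red and WT in blue, and the mean ± SD of 3 pools in black. Prkag2 and Stk11 are the probes whose genotypes do not overlap, and the KO 1 point is far below the rest for Slc2a3 (1448).

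Both glucose transporters had lower mean signals in KO, with arrays that overlapped between genotypes. Slc2a1 (probe ILMN_1258159) read 1533.5, 2060.5 and 1854.5 on the KO arrays and 1892.4, 2228.9 and 2651.1 on the WT arrays. KO 1 and KO 3 lay below every WT array, while KO 2 lay above WT 1. The mean signal was 1816 ± 266 in KO pools and 2257 ± 380 in WT pools (SD, n = 3 each). The difference was -0.33 log2 (SE 0.20; 95% interval -0.78 to 0.11), or 1.26-fold lower in KO (limma adjusted p = 0.582). The interval allows anything between a signal 1.71-fold lower and one 1.08-fold higher in KO.

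Slc2a3 (probe ILMN_2616565) read 1448, 2622.2 and 2272.5 on the KO arrays and 2539.1, 2696.8 and 2627.6 on the WT arrays. The WT pools were within a narrow band, and KO 1 alone was far below it; KO 2 lay inside it. The mean signal was 2114 ± 603 in KO pools and 2621 ± 79.0 in WT pools (SD, n = 3 each), with a difference of -0.38 log2 (SE 0.24; 95% interval -0.92 to 0.16; limma adjusted p = 0.584). Without KO 1 the difference was -0.11 for Slc2a3 and -0.21 for Slc2a1, and without KO 2 that of Slc2a3 was -0.57.

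Marker genes of the cells that carry each transporter were set beside these values. Of 9 neuronal markers 7 were tested (Snap25 and Nefl were not), 2 of them with positive differences and with a median of -0.17 log2, and they summed to signals of 41994, 63282 and 56293 on the KO arrays, against 61756, 62492 and 64486 on the WT arrays. KO 1 was lowest and KO 3 next lowest in both the neuronal sum and Slc2a3. In bulk tissue fewer neurons and less RNA per neuron cannot be told apart, and the part of neuronal content in the Slc2a3 values was not tested. Of 13 endothelial markers 10 were tested (Kdr, Slco1a4 and Abcb1a were not), 4 of them positive and with a median of -0.24, and with summed signals of 4092 to 4550 in KO and 4266 to 4990 in WT. WT 3 was highest in both the endothelial sum and Slc2a1, but the lowest arrays differed. Slc2a1 was lowest on KO 1 and the endothelial sum on KO 3 (4092, against 4391 on KO 1). By the mean log2 signal of these markers WT 2 was highest, at 7.72 against 7.70 on WT 3. By that mean KO 1 was lowest, as for Slc2a1, at 7.29, with KO 3 next at 7.43. All 10 astrocyte markers were tested, 5 of them positive and with a median of 0.064, at 47594 to 55521 in KO and 50511 to 53039 in WT. The part of either cell type in the Slc2a1 values was not tested. KO arrays lay wholly below WT arrays for 1 tested neuronal, 1 endothelial and 1 astrocyte marker, and wholly above for 1 astrocyte marker. Over all tested genes, KO lay wholly below WT for 6.79% and wholly above for 8.6%.

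**Figure D2:**
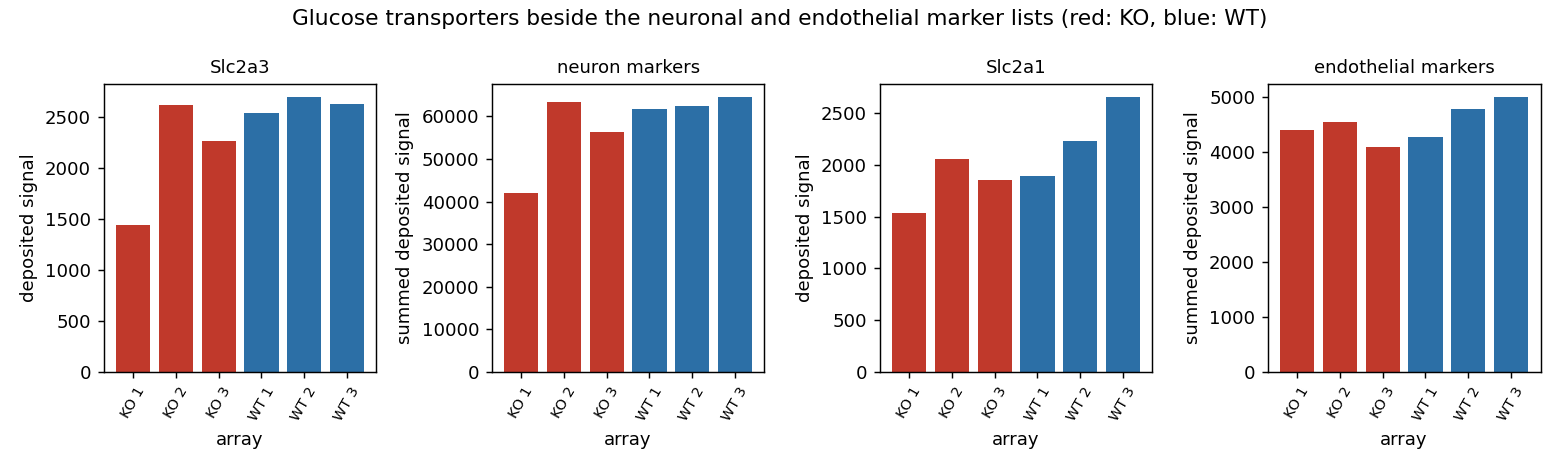
Deposited signal of Slc2a3 and Slc2a1 and the summed deposited signal of 7 neuronal and 10 endothelial markers (linear units, bars from 0) on each array, KO in red and WT in blue. KO 1 is lowest in Slc2a3 and in the neuronal sum, and WT 3 is highest in Slc2a1 and in the endothelial sum. The lowest array is KO 1 for Slc2a1 and KO 3 for the endothelial sum.

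The catalytic subunits of AMPK gave differences close to 0. Prkaa1, which encodes the alpha1 subunit found in most cell types, was read by a dim probe (ILMN_1233439) at 218, 203.4 and 214.8 on the KO arrays and 204.9, 206.3 and 206.8 on the WT arrays. KO 2 lay below every WT array and the other KO arrays above them. The difference was 0.10 log2 (SE 0.15; 95% interval -0.24 to 0.44; limma adjusted p = 0.768). Prkaa2 encodes alpha2, the other catalytic isoform. Its brighter probe (ILMN_2803138) read 324.6, 330.9 and 380.1 on the KO arrays and 340.1, 342.5 and 345.7 on the WT arrays. KO 3 lay above the WT pools, which were close together, and the other KO arrays below them. The mean signal was 345 ± 30.4 in KO pools and 343 ± 2.81 in WT pools (SD, n = 3 each). The difference was 0.0073 log2 (95% interval -0.35 to 0.37; limma adjusted p = 0.987). The dimmer probe (ILMN_1227113) differed by -0.12 (95% interval -0.56 to 0.33), with signals of 188.4 to 199.1 in KO inside the WT range of 183.9 to 215.1. For the brighter Prkaa2 probe the interval runs from a signal 1.28-fold lower to 1.29-fold higher in KO.

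The beta subunits, which hold the complex together, overlapped between genotypes as well. Prkab1 (probe ILMN_2653081) read 318, 343.4 and 379.5 on the KO arrays and 337.8, 364.5 and 401.4 on the WT arrays, a difference of -0.13 log2 (SE 0.18; 95% interval -0.54 to 0.27; limma adjusted p = 0.752). Each genotype spanned a similar range. The difference was -0.035 without KO 1, -0.034 without WT 3 and -0.24 without KO 3. Prkab2 (probe ILMN_1215061) read 169.7, 226.5 and 192.4 on the KO arrays and 201.5, 186.2 and 198.3 on the WT arrays. KO 1 was the lowest array and the 1 array on which the probe was not detected, and KO 2 was the highest. The difference was -0.052 log2 (SE 0.28; 95% interval -0.70 to 0.59; limma adjusted p = 0.945), and it was 0.25 without KO 1 and -0.35 without KO 2. Among the AMPK subunits Prkab2 had the widest interval.

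The gamma subunits, through which AMPK reads AMP and ATP, and the upstream kinase had positive differences. Prkag1 (probe ILMN_2771396) read 832.1, 738.4 and 699.2 on the KO arrays and 648.5, 731.6 and 687.7 on the WT arrays. KO 1 and KO 2 lay above every WT array and KO 3 among them. The difference was 0.16 log2 (SE 0.16; 95% interval -0.20 to 0.52; limma adjusted p = 0.667), and 0.076 without KO 1.

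Prkag2 (probe ILMN_3161626) encodes the gamma2 subunit, whose mutations in humans cause a heart disease with glycogen storage. It read 577.1, 605.7 and 582.8 on the KO arrays and 484.4, 541.1 and 527.8 on the WT arrays, so that the lowest KO pool lay above the highest WT pool. The mean signal was 589 ± 15.1 in KO pools and 518 ± 29.7 in WT pools (SD, n = 3 each), a difference of 0.24 log2 (SE 0.15; 95% interval -0.092 to 0.58), or 1.18-fold, which did not pass (limma adjusted p = 0.582). The difference was 0.26 without KO 1 and 0.18 without WT 1, the lowest WT pool.

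Stk11 (probe ILMN_2591570) encodes LKB1, the main AMPK-activating kinase. It read 668.9, 654.7 and 648 on the KO arrays and 543.3, 611.3 and 599.4 on the WT arrays, again without overlap. The mean signal was 657 ± 10.7 in KO pools and 585 ± 36.3 in WT pools (SD, n = 3 each). The difference was 0.22 log2 (SE 0.15; 95% interval -0.12 to 0.55), or 1.16-fold, and did not pass (limma adjusted p = 0.590). It was 0.20 without KO 1 and 0.15 without WT 1. For both Prkag2 and Stk11 the WT 1 array was the lowest of the 6 and lay apart from the other WT pools. The intervals allow a signal up to 1.49-fold higher for Prkag2 and up to 1.46-fold higher for Stk11 in KO.

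**Figure D3:**
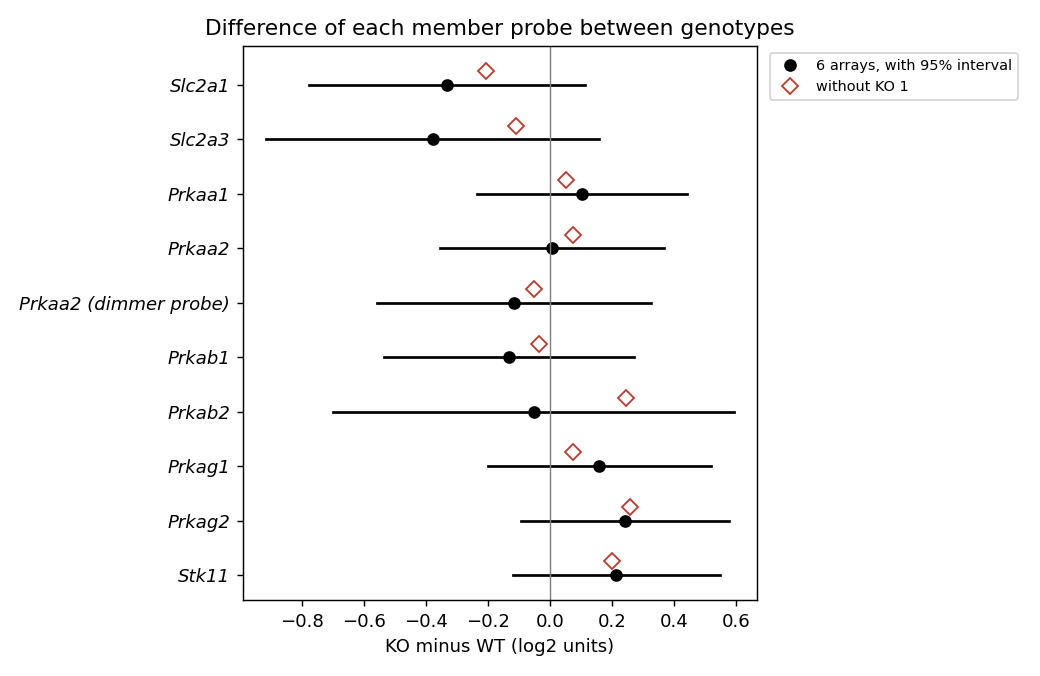
Difference between KO and WT (log2 units, KO minus WT) for each member probe, with its 95% interval over the 6 arrays (black) and the difference without KO 1 (open red diamonds). Each interval includes 0; without KO 1 the Slc2a3 value is -0.11 and the Prkab2 value is 0.25, on the other side of 0.

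FoxO1 is a forkhead factor, so the promoter windows of the members were searched for 4 variants of the forkhead core motif, each of 7 letters, on both strands. Windows of 300 bases, 250 before and 50 after an annotated start, came from RefSeq (GRCm38.p6); 9 of the 10 genes had 1, with 11 windows in all, 3 of them for Prkag2, and Slc2a3 had none there. A match was found in 3 of these 11 windows, those of Prkag1, Prkag2 (1 of its 3 starts) and Stk11, while any of the motifs occurs in 15% of the 32851 windows of all genes. The variant GTAAACA occurs in 3.65% of all windows and the variant ATAAACA in 4.6%. The variant GTAAATA occurs in 3.04% and the variant ATAAATA in 5.6%. No matches of different variants overlapped in the member windows. A stretch of each of the 3 windows with a match is shown, so that every match is printed, and the stretches were chosen after the values were seen. Capitals mark the matches, and each stretch is written 5′ to 3′ on the strand of its gene. A match is a run of letters and not a measured binding site, and FoxO1 binding was not measured.
Stk11, chr10:80115799-80115828, + strand: cggcgcagggcgGTAAACAagatggcggcg
Prkag2, chr5:24995754-24995873, - strand: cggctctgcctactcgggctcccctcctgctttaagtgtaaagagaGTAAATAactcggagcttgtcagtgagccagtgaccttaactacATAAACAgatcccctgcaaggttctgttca
Prkag1, chr15:98831619-98831738, - strand: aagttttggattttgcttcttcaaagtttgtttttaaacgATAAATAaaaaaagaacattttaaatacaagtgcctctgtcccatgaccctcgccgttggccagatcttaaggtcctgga
The Stk11 match begins 16 bases after its start, the Prkag2 matches 74 and 30 bases before theirs and the Prkag1 match 190 bases before its start.

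The members did not deviate in the same way on all arrays. KO 1 was the lowest array for 5 member probes (Slc2a1, Slc2a3, the brighter Prkaa2 probe, Prkab1 and Prkab2) and the highest for 3 (Prkaa1, Prkag1 and Stk11). It was thus at an extreme for 8 of the 10 probes, where it was at an extreme for 69.6% of all tested probes. On KO 1, Slc2a3 lay 0.73 and Prkab2 0.62 log2 below their 6-array means, while Prkag1 lay 0.25 above. WT 1 was the lowest array for Prkag1, Prkag2 and Stk11, at -0.19, -0.25 and -0.24 from their means.

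**Figure D4:**
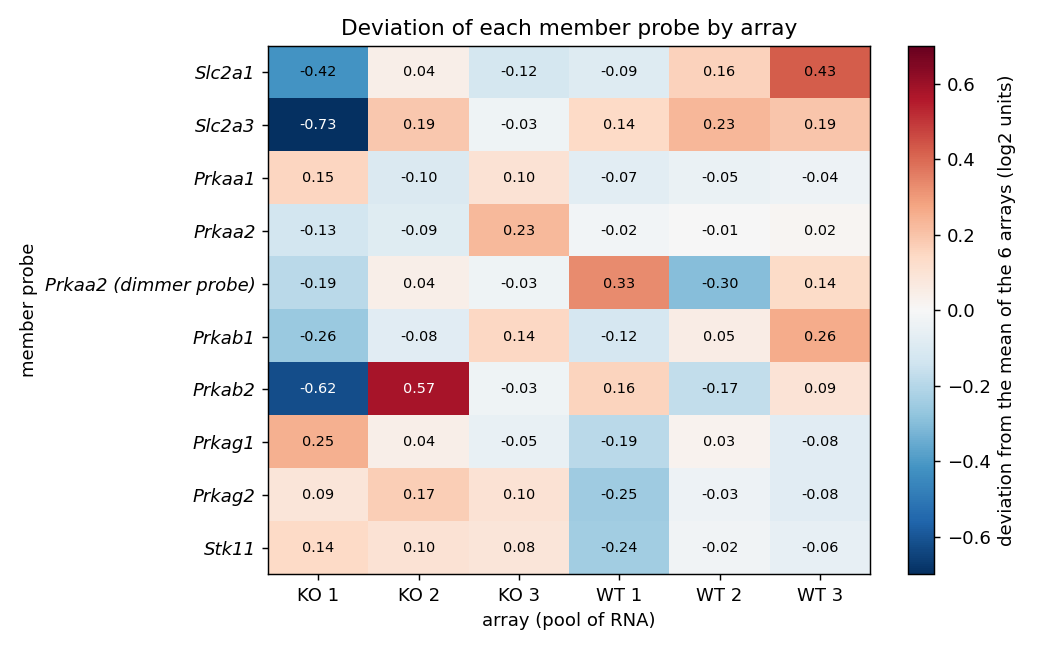
Deviation of each member probe on each array from its mean over the 6 arrays (log2 units), KO arrays left and WT arrays right. KO 1 holds the lowest value for Slc2a3 (-0.73) and Prkab2 (-0.62), and Prkag2 and Stk11 are above 0 on every KO array and below 0 on every WT array.

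Across the 6 arrays, the genes whose brightest probe followed a member most closely were named by a fixed rule, as a description and out of 10824 genes compared. For Slc2a1 they were Daglb (Pearson r = 0.996), Cemip2 (0.993) and Plekhg3 (0.986). For Slc2a3 they were Zfp236 (0.999), Ap2a2 (0.999) and Cul9 (0.998), and 1419 genes had r above 0.9 with it, against 173 for Slc2a1 and 36 for Prkaa2. Each of these Slc2a3 neighbours was lowest on KO 1, as Ap2a2 was at 974.4, with 1748 and 1525.2 on the other KO arrays and 1744 to 1831 on the WT arrays. For Prkaa2 they were Lars (0.980), Ppp2ca (0.980) and Irx5 (0.976), which like Prkaa2 were highest on KO 3.

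Genes that work with the members were described from 6 lists, in each of which 0 genes passed the limma test (smallest adjusted p = 0.582 in each list) and 0 genes had an unadjusted p under 0.05, where 6.36% of tested genes lay. Taking the brightest probe per gene, KO arrays lay wholly above WT arrays for 8.6% of the 10825 tested genes and wholly below for 6.79%, and the median difference of all tested genes was 0.019 log2, with 47.4% negative. Without background correction that median was 0.011, and the list medians were closer to 0: -0.036 for glucose entry, -0.053 for genes upstream of AMPK, -0.14 for the LKB1-activated kinases, -0.12 for AMPK substrates, 0.099 for mitochondrial carriers and -0.12 for neuronal glucose sensing. Among dim genes named below, the difference without that correction was -0.12 for Strada, -0.19 for Sik2, -0.16 for Sik3, 0.090 for Brsk1 and -0.20 for Eef2k. It was 0.30 for Slc25a4, 0.085 for Slc25a30, -0.086 for Slc25a27, -0.44 for Nos1, -0.13 for Kcnk3, -0.067 for Kcnj11 and -0.11 for Abcc8.

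Of 17 genes of glucose entry and phosphorylation besides the members, 8 were tested, 3 positive and 5 negative, with a median of -0.11 log2. Without KO 1 the median was -0.10, again with 5 negative. Slc2a6, a transporter of lysosomal membranes, read 604.8, 651.6 and 734.4 on the KO arrays and 758.8, 743.7 and 863 on the WT arrays, all KO below all WT (-0.30 log2, SE 0.16; limma adjusted p = 0.582). Slc2a13, the proton-coupled inositol transporter of the brain, read 1794.1, 2406.3 and 2252.5 on the KO arrays and 2631.6, 2579.9 and 2490.9 on the WT arrays, also without overlap (-0.28, and -0.15 without KO 1). Slc2a9, a urate transporter, lay the other way, at 174.6 to 177.6 in KO and 166.7 to 170 in WT (0.23, and 0.065 without background correction). The first enzyme of glycolysis in neurons, Hk1, read 274.9 on KO 1 and 441.8 and 612.7 on the other KO arrays, against 468.5 to 564.3 on the WT arrays; it was named after its values were seen.

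Of 19 genes that act upstream of AMPK or bind it, 15 were tested, 7 positive and 8 negative, with a median of -0.055 log2. The smallest p belonged to Flcn, which encodes folliculin, a tumour suppressor that binds AMPK through its partners Fnip1 and Fnip2. Flcn read 1397, 1754.4 and 1821.5 on the KO arrays and 2166.1, 1881.5 and 2192.1 on the WT arrays, all KO below all WT (-0.36 log2, SE 0.17; 1.28-fold lower in KO; limma adjusted p = 0.582). Strada, the pseudokinase that activates LKB1, differed by -0.40 (SE 0.21) and Axin1, a scaffold that can bring LKB1 to AMPK, by -0.49 (SE 0.28), and both overlapped between genotypes. Without KO 1 these 3 differences were -0.23, -0.23 and -0.18. The list's median was then -0.029, with 10 of the 15 differences negative.

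LKB1 activates 12 further kinases on the list of AMPK relatives, and all 12 were tested: 11 differences were negative and 1, that of Brsk1, positive (0.27), with a median of -0.22 log2. Without KO 1 the median was -0.049, with 10 negative, where the median of all tested genes was 0.0071. Mark2, a kinase of microtubule-associated proteins, read 1622.9, 3966.9 and 4114.6 on the KO arrays and 4125.4, 4160.9 and 4516.6 on the WT arrays. The groups did not overlap, but KO 1 was far below every other array, and the difference of -0.54 (SE 0.35; limma adjusted p = 0.585) was -0.080 without it. Nuak1 also separated the genotypes, at 754.8, 1114.9 and 1109.2 against 1146.4, 1133.4 and 1149.8 (-0.26, and -0.045 without KO 1). Sik2 and Sik3, salt-inducible kinases that act on CREB coactivators, differed by -0.59 and -0.48, with overlap, and by -0.28 and -0.072 without KO 1.

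Of 22 substrates and effectors of AMPK, 17 were tested, 5 positive and 12 negative, with a median of -0.23 log2. Without KO 1 the median was -0.061, with 11 negative. Pfkfb2, which makes the fructose bisphosphate that speeds glycolysis, read 709.6, 774.1 and 784.9 on the KO arrays and 986.6, 829.5 and 902.1 on the WT arrays, without overlap (-0.31 log2, SE 0.15; limma adjusted p = 0.582), and the difference was -0.25 without KO 1. Eef2k, a kinase that slows protein synthesis, and Ulk1, which starts autophagy, also lay wholly below WT, with differences of -0.43 and -0.42, and of -0.20 and -0.12 without KO 1. Mff, a receptor for mitochondrial fission, lay wholly above WT, at 1886.8 to 2335 in KO and 1643.1 to 1874.4 in WT (0.26). Tsc2, a brake on mTORC1, read 870.9 on KO 1 and 2131.9 and 2502 on the remaining KO arrays, against 2476.9 to 2761.9 on the WT arrays. Its difference was -0.68 (SE 0.39), and -0.17 without KO 1. The Crtc2 probe was above background on 3 WT arrays and 0 KO arrays, so its level in KO is only bounded. Its signals overlapped between genotypes, at 152.3 to 170 in KO and 164.7 to 193 in WT. Crtc2 met the filter of at least 3 arrays through its WT arrays alone, which favours a negative difference. It is still counted among the 12 negative genes and in the list's median.

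With Ucp2 unread, 5 of 7 other uncoupling proteins and related mitochondrial carriers were tested (Ucp1 and Ucp3 were not), 4 positive and 1 negative, with a median of 0.22 log2, and 0.20 without KO 1. Slc25a5, an ADP/ATP carrier, read 6291.5, 5568.7 and 5793.2 on the KO arrays and 4896.9, 5408.3 and 4645.7 on the WT arrays, all KO above all WT (0.25, SE 0.15; 1.19-fold; limma adjusted p = 0.582). Its relative Slc25a4 differed by 0.68 (SE 0.36) with overlap, and by 0.31 without KO 1. Slc25a30 differed by 0.22, and the brain uncoupling proteins Slc25a27 and Slc25a14 by -0.16 and 0.11. Without KO 1, 2 of the 5 differences were negative, at -0.0052 for Slc25a27 and -0.045 for Slc25a14.

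Of 8 genes linked to glucose sensing by neurons, 4 were tested and all 4 differences were negative, with a median of -0.34 log2 and overlap between genotypes for each. Nos1, the neuronal nitric oxide synthase, differed by -0.70 (SE 0.42), the potassium channel Kcnk3 by -0.35 (SE 0.22), and the subunits of the ATP-sensitive potassium channel Kcnj11 and Abcc8 by -0.23 and -0.34. The limma adjusted p was 0.582 for Nos1. Without KO 1, where the Nos1 signal was 237.8 against 432.6 to 524.7 on the other KO arrays, the list's median was -0.14 with 3 of 4 differences negative, and the difference was -0.15 for Nos1 and 0.12 for Abcc8.

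**Figure D5:**
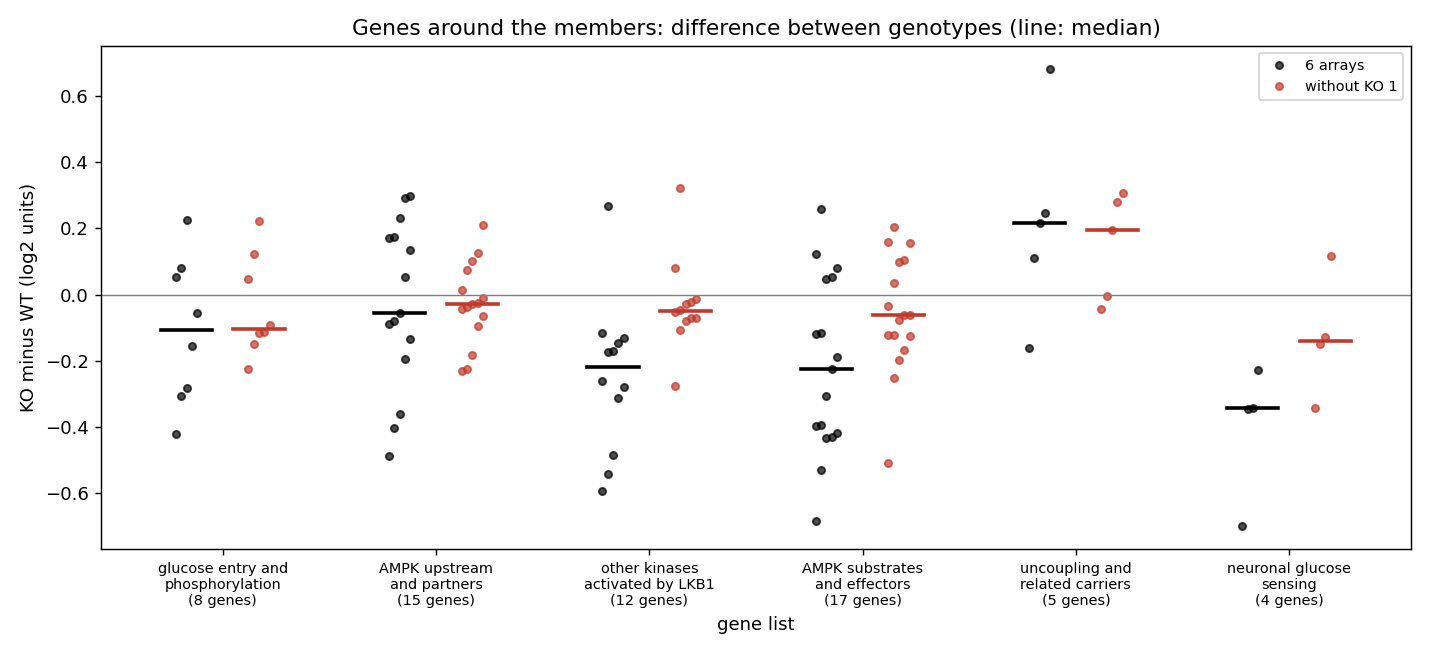
Difference between KO and WT (log2 units, KO minus WT) of the tested genes of each list, over 6 arrays (black) and without KO 1 (red), with a line at the median. The medians of the LKB1-activated kinases and of the AMPK substrates are -0.22 and -0.23 over 6 arrays and -0.049 and -0.061 without KO 1.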

How the data were processed

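RNA of the VMH was hybridised to 3 KO and 3 WT arrays, each a pool of 3 animals per the series' design text. The deposited table holds intensity and a detection p-value per probe, per the file headers. The authors' intensity values were already quantile-normalized, since sorted signals agree between arrays within 0.4, and not background-subtracted. The authors' value table holds log2 of these signals, equal within 5e-05; its scale, centring and direction are known from this match. Per the submitters' processing notes, Partek was used; the normalization and genome build are not given in the sources used here.

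Signals went through neqc of limma 3.58.1 (R 4.3.3: normexp with background from the detection p, offset 16, quantile normalization, log2). Probes with detection p under 0.05 on at least 3 arrays were tested with lmFit and eBayes (2-sided, no covariates), with Benjamini-Hochberg adjustment over 20006 probes. Background correction widens differences of dim probes. The number of arrays limits precision. The platform annotation gave 1 gene symbol for 34885 probes, several for 18 and none here for 10378; symbols were updated through Entrez identifiers to RefSeq (GRCm38.p6). For gene lists the brightest tested probe stood for a gene. Named genes are all member probes and, per list, the 3 genes with the smallest p and those whose genotypes do not overlap; Brsk1, Hk1, Crtc2, Abcc8, Slc25a27 and Slc25a14 were added after their values were seen. The members and lists were chosen with earlier results of these data known.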

Additional observations from a re-analysis of the deposited data

How the results depend on the processing

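Over the 17 alternative settings, 0 member probes and 0 listed genes passed an adjusted p of 0.05 with limma (smallest adjusted p of a member 0.371). Slc2a1, Slc2a3, Prkaa1, Prkab1, Prkag1, Prkag2 and Stk11 kept their direction in every setting. Not every setting could change it: the filters, the intensity trend and the replicate block leave each difference as it was. The authors' value table nearly repeats the setting without background correction. The brighter Prkaa2 probe turned to -0.039 with cyclic loess, its other probe read -0.12, and leaving out 1 array gave -0.10 to 0.074 (-0.0016 without WT 1). The dimmer Prkaa2 probe ranged from -0.29 to 0.023 with 1 array left out and read 0.087 without both arrays numbered 1, a setting chosen after seeing the data. Prkab2 turned to 0.045 with array weights and 0.31 without both arrays numbered 1, and ranged from -0.35 to 0.25 with 1 array left out. Member probes with an unadjusted p under 0.05 numbered 1 without background correction and in the authors' value table (Prkag2), 2 without a filter on dim probes (Prkag2 and Stk11) and 0 to 1 with 1 array left out (Slc2a3 without KO 2). Separated member probes numbered 2 to 5 with 1 array left out, where 19.6% to 34.8% of all tested probes separated, and 4 without both arrays numbered 1, where 31.4% did. Over all probes, 1 probe passed, and 0 passed in the authors' value table, with cyclic loess, an offset of 50, an intensity trend, the strict filter or the replicate block, or without background correction or a filter, and 0 to 1 with 1 array left out. At an unadjusted p under 0.05, 1516 probes became 2803 without a filter, 439 to 2632 with 1 array left out and 630 without both arrays numbered 1. Same-numbered arrays of the genotypes correlated at 0.15, 0.0037 and 0.40 in their deviations from the group means. Because the second of these lay under 0.1, the numbers were not taken as pairs, although 5 of 6 arrays correlated best with their own number, a hint from the data and not the design. With the replicate number as a block the member differences were the same and 1985 probes had an unadjusted p under 0.05. Without background correction the differences of the dim member probes were closer to 0, at 0.041 for Prkaa1, -0.046 for the dimmer Prkaa2 probe, -0.085 for Prkab1 and -0.0028 for Prkab2. The strict filter left the dimmer Prkaa2 probe and Prkab2 untested.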
